A study of Mus musculus with 14 samples.

Results

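The genes described here are 8 markers of the neural lineage, *Ncam1*, *Meis1*, *Meis2*, *Pax6*, *Sox1*, *Nes*, *Tubb3* and *Map2*, out of 23298 genes measured in mouse embryonic stem (ES) cells. They were chosen by name as a marker list, and *Ncam1* and *Meis2* are in it because their values are higher in XX than in XY lines. That difference is therefore a description for these 2 genes and carries no test, while the other 6 genes were tested. RNA sequencing covered 14 ES cell lines, each derived from a single blastocyst, so that every line is 1 embryo and lines of a group are separate embryos. BC lines come from a C57BL/6J mother and a CAST/EiJ father, and CB lines from the reciprocal cross. Female cells (XX) and male cells (XY) of each cross were represented by 3 lines a group, named BCF, BCM, CBF and CBM in the study, and 2 BC lines (BCO) had a single X and no Y chromosome (XO). All were early passage lines kept undifferentiated in serum and LIF on inactivated mouse embryonic fibroblasts, and total RNA was taken after a pair of steps to remove the fibroblasts. Numbers given to the 3 CB XX lines follow the column order of the table.

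ES cells correspond to the inner cells of the blastocyst before any germ layer forms, and neural tissue is the lineage they readily enter when self-renewal signals are withdrawn. Sox1 and Pax6 are transcription factors of the neural plate and neural progenitors, and nestin (*Nes*) is the intermediate filament of those progenitors. βIII-tubulin (*Tubb3*) and MAP2 (*Map2*) build the microtubules of neurons, NCAM (*Ncam1*) is a cell surface adhesion molecule of the immunoglobulin superfamily, and Meis1 and Meis2 are homeodomain proteins that bind DNA together with PBX proteins. None of these genes is limited to neural cells, since *Nes*, *Ncam1* and the *Meis* genes are also used in mesenchymal tissue.

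The values are a read signal per gene that the authors scaled to a common depth, so that each line sums to between 28150946 and 30657803. Taking the smallest step of a line as 1 read puts CB XY 2 lowest, at 11904424 reads, and BC XX 2 highest, at 69646308. All 8 genes had a signal above 10 in every line and passed the filter on low values. The lowest signal was 11.2, for *Sox1* in BC XY 1, and stands for 9 reads. *Meis1* and *Meis2* reached down to 11 and 21 reads in CB XY 2, whereas *Ncam1*, *Nes* and *Tubb3* never fell below 392 reads. The Y-linked gene *Uty* had signals of 945 to 2088 in the BC XY lines and 1149 in CB XY 1. For CB XY 2 and CB XY 3, as labelled, they were 19.6 and 45.4, within the 12.8 to 195 of the XX lines. The XX against XY differences of the 8 genes, and the other main values that rest on these 2 lines, are therefore also given without them. *Xist*, the RNA that coats the inactive X chromosome, ranged from 1445 to 4374 in XX and from 801 to 1611 in XY lines, and these ranges overlapped. The ES cell markers *Pou5f1*, *Nanog*, *Sox2* and 7 others were present in all 14 lines, with no value under 368.

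In mm9, *Ncam1* lies at chr9:49310257-49607027 on the minus strand, *Meis1* at chr11:18780433-18918961 on the minus strand and *Meis2* at chr2:115688800-115891575 on the minus strand. *Pax6* is at chr2:105509053-105543317 on the plus strand of the same chromosome. *Nes* is at chr3:87775000-87784373, *Tubb3* at chr8:125935324-125945915 and *Map2* at chr1:66221847-66489157, all on the plus strand. *Sox1* is on chromosome 8, and its coordinates in this build were not used here. No member is X-linked. *Meis2* is the member of the 8 for which the study designed a quantitative PCR assay, and its primers are shown because they define which *Meis2* transcripts that assay can see.
*Meis2* forward primer: cctcaaacccagagctggataa
*Meis2* reverse primer: agctaatgtaccggtggcagaa
In the GENCODE transcripts of mm9 both primers matched 8 of 13 coding *Meis2* transcripts and 0 of 3 coding *Meis1* transcripts. The product of 120 bases runs over 3 exons at chr2:115884474-115886442.

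The start-site windows of *Meis1* and *Meis2* are shown because these paralogs differed between the groups in different ways, and that of *Sox1* because it holds a pluripotency factor motif. They run from 250 bases before to 50 bases after the start site (RefSeq, GRCm38.p6, a later build than that of the values) and are printed in the direction of transcription, with the matched motif in capitals.
*Meis1*, minus strand of chr11:19018920-19019219: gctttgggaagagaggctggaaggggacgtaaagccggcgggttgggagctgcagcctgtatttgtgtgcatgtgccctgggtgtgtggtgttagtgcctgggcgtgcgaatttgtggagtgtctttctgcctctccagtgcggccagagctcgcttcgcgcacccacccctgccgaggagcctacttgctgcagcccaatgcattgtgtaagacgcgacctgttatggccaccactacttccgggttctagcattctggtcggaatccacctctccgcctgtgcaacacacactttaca
*Meis2*, minus strand of chr2:116064570-116064869: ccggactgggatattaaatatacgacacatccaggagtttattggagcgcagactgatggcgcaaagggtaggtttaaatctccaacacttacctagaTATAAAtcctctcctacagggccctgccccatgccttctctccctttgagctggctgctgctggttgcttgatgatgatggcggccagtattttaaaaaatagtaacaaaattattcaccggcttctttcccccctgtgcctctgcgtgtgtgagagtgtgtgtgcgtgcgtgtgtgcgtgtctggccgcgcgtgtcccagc
*Sox1*, plus strand of chr8:12395269-12395568: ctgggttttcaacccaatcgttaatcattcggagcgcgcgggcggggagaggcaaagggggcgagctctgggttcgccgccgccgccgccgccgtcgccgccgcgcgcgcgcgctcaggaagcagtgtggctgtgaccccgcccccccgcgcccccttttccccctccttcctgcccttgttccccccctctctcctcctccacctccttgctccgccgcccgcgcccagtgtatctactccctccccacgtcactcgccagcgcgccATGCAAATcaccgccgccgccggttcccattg
A window was held for 7 of the 8 members, *Pax6* with a pair of them. Each window was searched on both strands for the octamer bound by Oct4 (ATGCAAAT), the core bound by MEIS proteins (TGACAG), the Prdm14 motif (GGTCTCTAA) and a TATA box (TATAAA), and no matches of different motifs overlapped. *Meis2* held TATAAA at position -152 from the start site, *Sox1* held ATGCAAAT at position 19 after it, and a *Pax6* window held TGACAG at position -159 on the minus strand. The other windows, that of *Meis1* included, held none of these letters. Of 32851 windows of the same length, 13.62% held TATAAA, 1.74% ATGCAAAT, 19.18% TGACAG and 0.26% GGTCTCTAA.

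Signals per kilobase of annotated exon were used to set the genes beside each other. The length was that of all GENCODE M1 exons of a gene joined, which can exceed a single transcript. *Sox1* has no entry there, so its RefSeq length was used, and its level is not on quite the same footing. *Tubb3* had the highest level per kilobase, with a mean of 1226 over the 14 lines (429.6 to 2032), followed by *Nes* at 386 (154 to 828) and *Ncam1* at 147 (66.4 to 353). *Tubb3* was above *Nes* in 13 of 14 lines, *Nes* above *Ncam1* in 13, and *Ncam1* above *Map2* in all 14. The other 5 genes were much lower, at mean levels per kilobase of 19.2 for *Map2*, 16.3 for *Meis2*, 11.3 for *Pax6*, 9.47 for *Meis1* and 7.99 for *Sox1*. Neighbours in this lower order changed places between lines, each being above the next in only 8 or 9 of 14 lines, so neighbours among these 5 differed by less than their spread over lines. In lines of every group *Tubb3*, *Nes* and *Ncam1* were thus far above the neural transcription factors per kilobase of annotated exon. *Map2*, also a structural gene, was not, and lay near *Meis2*.

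**Figure D1:**
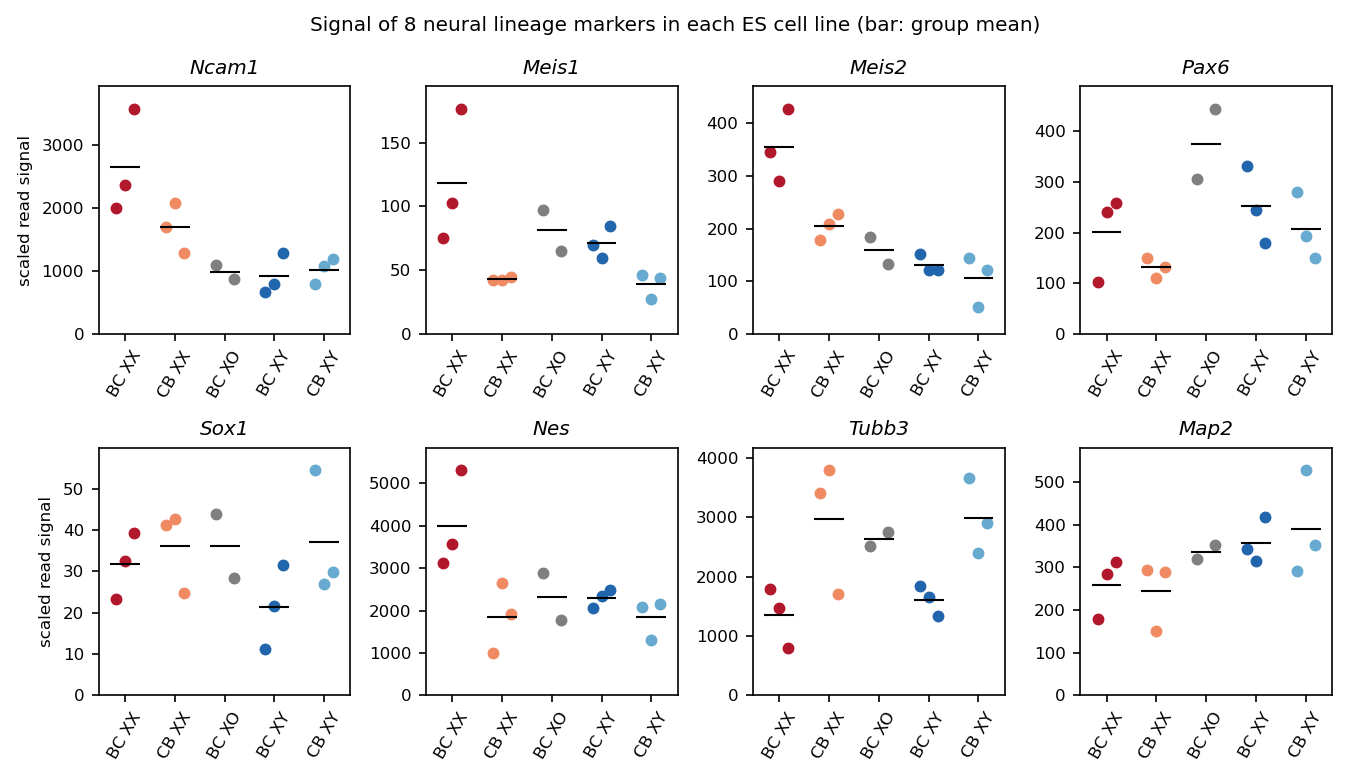
Scaled read signal (linear axis from 0) of the 8 genes in each of the 14 lines, by group; points are lines and bars are group means. *Ncam1* and *Meis2* are highest in BC XX lines and next highest in CB XX lines, while *Tubb3* is lowest in BC XX and BC XY lines.

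*Ncam1*, the adhesion molecule, had signals of 1997, 2371 and 3578 in the BC XX lines and of 672, 800 and 1290 in the BC XY lines. In the CB cross the signals were 1704, 2078 and 1287 in XX lines and 792, 1071 and 1192 in XY lines, and the XO lines had 1093 and 875. All XX lines were above all XY lines within each cross, whereas over both crosses CB XX 3 (1287) fell just under BC XY 3 (1290), so that 5 of 6 XX lines were above every XY line. The mean signal was 2169 ± 782 (SD, n = 6) in XX and 969 ± 249 (SD, n = 6) in XY lines, a ratio of 2.24. On the log2(signal + 5) scale, on which a fold change understates that of a low gene, the XX lines were higher by 1.13 (SE 0.23). The difference was 1.53 (SE 0.27) in the BC and 0.72 (SE 0.27) in the CB cross. Being the measure on which *Ncam1* was chosen, these values are given without a test.

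*Meis2* had signals of 346, 291 and 428 in BC XX and of 151, 121 and 122 in BC XY lines. CB XX lines had 178, 210 and 227, CB XY lines 143, 51.6 and 122, and XO lines 185 and 132. All 6 XX lines were above all 6 XY lines, with means of 280 ± 94.5 and 119 ± 35.2 (SD, n = 6 each), a ratio of 2.36. The log2 difference was 1.21 (SE 0.27) over both crosses, 1.39 (SE 0.32) in BC and 1.03 (SE 0.32) in CB lines, again without a test. The lowest signal, 51.6 in CB XY 2, rests on 21 reads. Without CB XY 2 and CB XY 3 the difference within the CB cross, then against a single XY line, was 0.49 for *Meis2* and 1.06 for *Ncam1*.

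Among the 6 genes that were not chosen for their level in XX lines, 0 had XX and XY groups that did not overlap, and over all genes tested 3.52% did. Within the BC cross 2 of the 6 did not overlap, *Nes* higher and *Map2* lower in XX lines, beside 27.1% of all genes. Within the CB cross 0 of the 6 did, beside 23.2% of all genes. The separation of *Ncam1* and *Meis2* described above entered their choice, so nothing is read from it.

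Of the other 6 genes, 0 passed an FDR of 0.05 (limma, p-values adjusted by Benjamini-Hochberg) when XX and XY lines were compared, a threshold that 5.21% of all 15311 genes tested passed. At an unadjusted p under 0.05, *Map2* was the one gene. The neuronal microtubule gene *Map2* had signals of 180, 285 and 312 in BC XX, 293, 151 and 289 in CB XX, 342, 314 and 417 in BC XY and 291, 528 and 353 in CB XY lines, and of 321 and 353 in XO lines. The BC groups did not overlap, and 4 of the 6 XX lines were below every XY line. The log2 difference was -0.58 (SE 0.21; limma, adjusted p = 0.126). *Map2* lies on chromosome 1, whose genes were raised by a median of 0.32 (log2) in CB XX 1, the line with the highest *Map2* signal of the CB XX lines. With each line's shift of the chromosome taken out, an alternative chosen after seeing the data, the difference was -0.73 (SE 0.21) and did not pass the adjusted threshold either.

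*Pax6*, the transcription factor of neural progenitors and of the eye, had signals of 102 to 259 in the 6 XX lines and 149 to 332 in the 6 XY lines, with medians of 142 and 220. The groups overlapped, with 3 XX lines below every XY line, and the log2 difference was -0.50 (SE 0.27; limma, adjusted p = 0.285). An opposite-strand neighbour, *Elp4*, shares exon sequence with *Pax6*, and its signal was between 440.2 and 618 in all 14 lines. It is not given whether the counting used the strand, so reads of the sequence shared by *Elp4* and *Pax6* cannot be assigned with certainty. *Sox1*, the earliest of these markers in the neural plate, had signals from 23.2 to 42.6 in XX, 11.2 to 54.5 in XY and 28.5 to 43.9 in XO lines. Its log2 difference of 0.26 (SE 0.28; limma, adjusted p = 0.604) had an interval from -0.34 to 0.86, which includes 0.

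*Nes* had signals of 3123, 3564 and 5315 in BC XX and 2073, 2340 and 2476 in BC XY lines, where the groups did not overlap. In the CB cross it had 989, 2654 and 1910 in XX and 2078, 1309 and 2151 in XY lines, and the XO lines had 2891 and 1772. The CB XX lines thus spanned the CB XY lines on both sides. The log2 difference between XX and XY was 0.77 (SE 0.32; limma, adjusted p = 0.172) in the BC cross, -0.07 (SE 0.32; adjusted p = 0.932) in the CB cross and 0.35 (SE 0.32; adjusted p = 0.540) over both.

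*Meis1*, the paralog of *Meis2*, had signals of 75.6, 103 and 177 in BC XX, 69.9, 59.9 and 85.0 in BC XY and 97.3 and 65.4 in BC XO lines. In CB lines it was 42.6, 42.6 and 44.4 in XX and 46.4, 27.0 and 44.1 in XY cells. The lines thus separated by cross, and XX and XY groups overlapped in both crosses. The log2 difference between XX and XY lines was 0.39 (SE 0.35; limma, adjusted p = 0.540).

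*Tubb3* had signals of 1784, 1469 and 803 in BC XX, 1851, 1652 and 1341 in BC XY and 2517 and 2758 in BC XO lines. In the CB cross they were 3417, 3796 and 1709 in XX and 3665, 2404 and 2900 in XY lines. XX and XY lines overlapped in both crosses, with a log2 difference of -0.19 (SE 0.35; limma, adjusted p = 0.771) over all 12. *Tubb3* and *Sox1* lie on chromosome 8, whose genes had a median shift of 0.29 in CB XX 3 and 0.33 in CB XY 1 on the log2 scale.

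With CB XY 2 and CB XY 3 left out, the log2 difference between XX and XY was 1.26 (SE 0.26) for *Ncam1* and 0.97 (SE 0.25) for *Meis2*, again as a description. It was -0.47 (SE 0.24) for *Map2*, -0.68 (SE 0.30) for *Pax6* and 0.29 (SE 0.34) for *Sox1*. *Nes* was at 0.21 (SE 0.36), *Meis1* at 0.12 (SE 0.39) and *Tubb3* at -0.05 (SE 0.41). All 8 kept their sign, and 0 of the 6 genes tested passed by limma, with *Pax6* the one at an unadjusted p under 0.05 (adjusted p = 0.271).

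**Figure D2:**
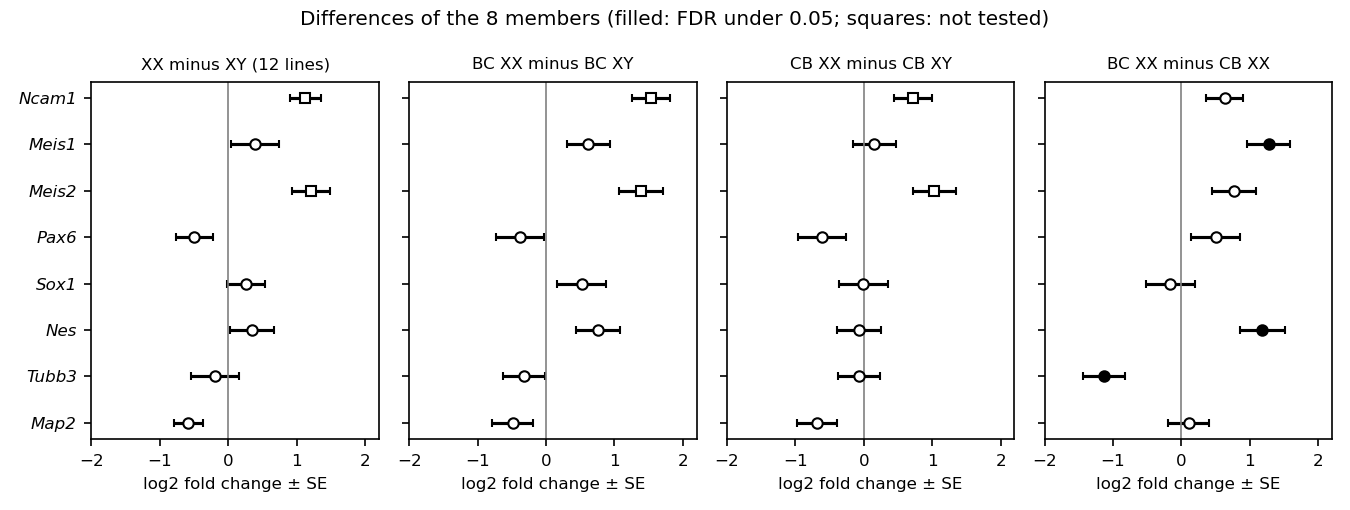
Log2 fold change with its standard error for the 8 genes in 4 comparisons (limma on log2(signal + 5)); filled circles passed an FDR of 0.05, open circles did not, and squares are *Ncam1* and *Meis2* where they were not tested. In the BC XX against CB XX panel the filled genes are *Meis1* and *Nes*, higher in BC XX, and *Tubb3*, lower. *Ncam1* and *Meis2* are drawn as open circles in that panel and are a description there too.

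The interaction of sex and cross asks whether the XX against XY difference is unequal between the crosses. It was 0.84 (SE 0.46) for *Nes* (limma, adjusted p = 0.629) and 0.81 (SE 0.39) for *Ncam1*. The XX and XY lines entered the choice of *Ncam1* and *Meis2*, so for these 2 genes the interaction is a description without a test. Of the 8 genes 0 passed by limma, 0 at an unadjusted p under 0.05, and over all genes 0.0738% were called. Without CB XY 2 and CB XY 3, which leaves CB XY 1 as the only CB XY line, the interaction was 0.47 (SE 0.49) for *Ncam1*, 0.90 (SE 0.41) for *Meis2* and 1.04 (SE 0.56) for *Nes*. Whether the larger *Ncam1* difference in the BC cross differs from that in the CB cross was thus not tested.

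Between BC XX and CB XX lines 3 of the 6 genes tested differed, where 7.15% of 16261 genes were called by limma at an FDR of 0.05. These groups differ in cross and also in fibroblast markers, of which 14 of 24 were called higher in BC XX lines. Values with the fibroblast level as a covariate are given below. *Meis1* was higher in BC XX than in CB XX lines by 1.27 on the log2 scale (SE 0.31, adjusted p = 0.0312), a fold of 2.42, and *Nes* by 1.18 (SE 0.32, adjusted p = 0.0421). *Tubb3* was lower in BC XX lines by -1.13 (SE 0.31, adjusted p = 0.0434). The groups did not overlap for *Meis1* and *Nes*, 2 of the 6, beside 26.8% of all genes. *Ncam1* (0.63, SE 0.27) and *Meis2* (0.77, SE 0.32) had higher means in BC XX lines, a description without a test because the XX lines entered their choice. These calls depended on single lines: 0 genes passed without BC XX 2, BC XX 3 or CB XX 1, 1 passed without BC XY 2, CB XX 2, CB XY 1 or CB XY 3, and 2 passed without either XO line. Without both CB XY 2 and CB XY 3, 1 passed.

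Among XY lines, 0 of the 8 genes passed by limma between the crosses, 2 had an unadjusted p under 0.05, and 0.64% of all genes were called. These 2 were *Meis1*, at 0.81 (SE 0.31, adjusted p = 0.185) higher in BC XY lines, and *Tubb3*, at -0.88 (SE 0.31, adjusted p = 0.151), the same signs as among XX lines. They were also the 2 of these 6 genes whose groups did not overlap, beside 26.8% of all genes. *Ncam1* (-0.18, SE 0.27) and *Meis2* (0.41, SE 0.32) are given as a description, because the XY lines entered their choice. Without CB XY 2 and CB XY 3 both changed sign, to 0.16 and -0.13.

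The BC XO lines let a single X be compared with and without a Y chromosome, and against XX cells of the same cross. The BC XY lines entered the choice of *Ncam1* and *Meis2*, so for these 2 genes the values between BC XO and BC XY lines are a description. Of the other 6 genes 0 passed by limma between these groups and 0 had an unadjusted p under 0.05. Over all genes 0.00615%, 1 of 16261, was called. Differences on the log2 scale were 0.59 (SE 0.39) for *Pax6*, 0.69 (SE 0.40) for *Sox1* and 0.72 (SE 0.35) for *Tubb3*, all with an adjusted p of 0.999 by limma. They were 0.14 (SE 0.31) for *Ncam1* and 0.25 (SE 0.35) for *Meis2*. The intervals for *Ncam1* (-0.51 to 0.80) and *Meis2* (-0.51 to 1.01) show how much a design of 2 against 3 lines leaves unresolved. *Tubb3* was the 1 of the 6 genes whose groups did not overlap, beside 17.6% of all genes, with both XO lines above the 3 XY lines.

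Against the XO lines, *Ncam1* was higher in BC XX lines by 1.39 (SE 0.31) and *Meis2* by 1.14 (SE 0.35), which is a description because the XX lines entered their choice. *Tubb3* was at -1.04 (SE 0.35; limma, adjusted p = 0.0918) and *Pax6* at -0.97 (SE 0.39; adjusted p = 0.154). Of the 6 genes tested 0 passed, 3 had an unadjusted p under 0.05, and 4.66% of all genes were called. Of these 6 genes, 4 had groups that did not overlap, *Nes* higher and *Pax6*, *Tubb3* and *Map2* lower in XX lines, beside 47.2% of all genes with 3 lines against 2.

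The summed signal of fibroblast markers was highest in the BC XX lines. The 24 fibroblast markers, collagens and other matrix and mesenchymal genes, summed to a signal of 79947 to 197723 in BC XX lines, 16420 to 32076 in BC XY, 27272 to 27619 in BC XO, 15766 to 44156 in CB XX and 11539 to 36259 in CB XY lines. None of the 24 was at 0 in any line, and 15 were called higher in BC XX than in BC XY lines against 0 between CB XX and CB XY lines, where 0 also had an unadjusted p under 0.05 (limma, FDR of 0.05). The interaction was called for 0 of the 24, with 15 at an unadjusted p under 0.05. Between BC XX and BC XY lines 23 of the 24 had a positive difference, and *Pdgfra* was at -0.60 (SE 0.59). In these bulk samples a larger number of cells of a type and more RNA per cell cannot be told apart. The mean log2 level of the markers was 10.50 to 11.74 in BC XX lines and at most 10.04 in the other 11 lines, so that it nearly coincides with that group.

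The log2 signals of 4 of the 8 genes had a Pearson correlation of at least 0.5 in size with this fibroblast level over the 14 lines. These correlations are given as descriptions, without p, since the BC XX lines hold the highest fibroblast levels and entered the choice of *Ncam1* and *Meis2*. *Meis2* had r = 0.845 (Spearman rho = 0.824), which was 0.754 without BC XX 2 and BC XX 3, the lines farthest from the median fibroblast level. Over the 11 lines other than BC XX it was 0.652, and on deviations from the group means it was 0.713. *Nes* had r = 0.772 (rho = 0.640), 0.542 without those 2 lines, 0.425 over the 11 lines and 0.715 within groups.

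*Ncam1* behaved otherwise, with r = 0.679 (rho = 0.556) over 14 lines but 0.302 without those 2 lines, 0.080 over the 11 lines and -0.044 within groups, so that its relation rests on the BC XX lines. *Meis1* had r = 0.612 (rho = 0.407), 0.153 without those 2 lines, 0.013 over the 11 lines and 0.527 within groups. *Map2* ran the other way, with r = -0.491 (rho = -0.688), -0.747 without the 2 lines and -0.660 over the 11 lines. *Tubb3* (r = -0.420), *Sox1* (0.123) and *Pax6* (-0.038) were under 0.5 in size.

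**Figure D3:**
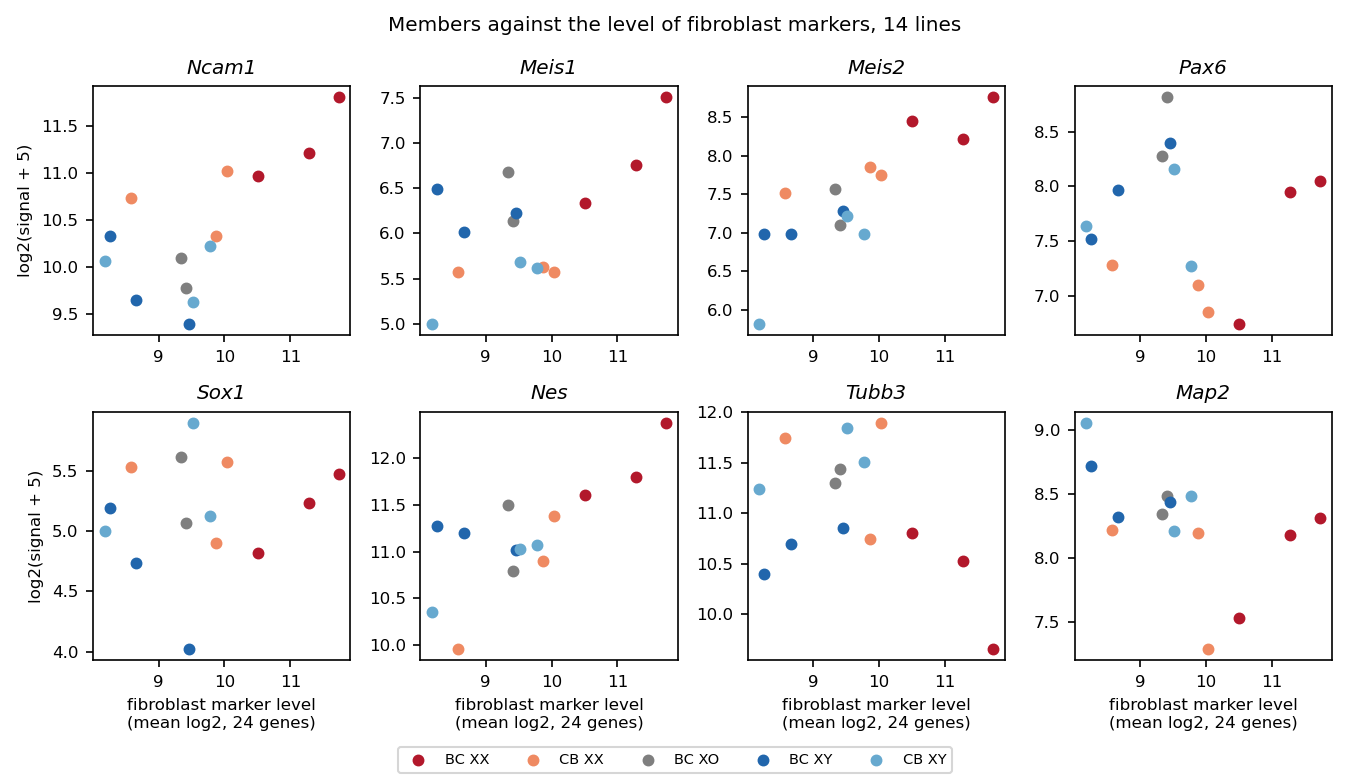
Log2(signal + 5) of each gene against the mean log2 level of 24 fibroblast markers; each point is 1 of the 14 lines, coloured by group. The BC XX lines hold the highest fibroblast levels, 10.50 to 11.74, and *Meis2* rises along the whole axis while *Ncam1* shows no trend among the other lines.

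With the fibroblast level as a covariate the XX against XY difference of *Ncam1* was 0.88 (SE 0.27) on the log2 scale and that of *Meis2* 0.66 (SE 0.26), down from 1.13 and 1.21. Within the BC cross it was 1.59 (SE 0.48) for *Ncam1* and 0.38 (SE 0.44) for *Meis2*, and within the CB cross 0.73 (SE 0.28) and 0.89 (SE 0.26). In the BC cross the value of *Meis2* was thus smaller with the covariate and that of *Ncam1* was not. In the CB cross both stayed near their values without it. The fibroblast level nearly coincides with the BC XX group, so the 2 cannot be told apart in the BC values. The positive values of *Nes* and *Meis1* over both crosses turned to -0.42 (SE 0.24) and -0.24 (SE 0.37). With the cross and the fibroblast level together, *Ncam1* was at 0.92 (SE 0.28) and *Meis2* at 0.78 (SE 0.24). In the comparison of BC XX with CB XX lines, 0 of the 6 genes tested passed by limma with the fibroblast level alone as covariate. The smaller values were 0.79 for *Meis1*, 0.37 for *Nes* and -1.01 for *Tubb3*. The part of fibroblast RNA in each value was not tested.

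*Ncam1* also contains *Gm11149*, an annotated gene on the opposite strand whose exons overlap those of *Ncam1*. Its signal ran from 23.7 to 103, or 2.88% to 4.67% of that of *Ncam1*, and it was the gene whose pattern over the 14 lines was most like that of *Ncam1* among 16260 others (Pearson r = 0.964 of log2 signals). The libraries were strand-specific, and whether the counting used the strand is not given in the sources used here, so reads of this pair cannot be assigned with certainty. Next to it came *Fbxw10* (0.957), *Nid1* (0.947), *Tns1* (0.936) and *Atp11a* (0.936).

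The genes most like *Meis2* were *Spats2l* (r = 0.961), *Hoxb9* (0.960), *Lyrm2* (0.939), *Pdgfc* (0.932) and *Clcn5* (0.932). *Meis1* was most like *Zbtb1* (0.962), *Itga5* (0.916), *Fhl1* (0.915), *Ube2j1* (0.911) and *Cd59a* (0.911), with 0 genes shared with the list of its paralog. *Nes* was most like *Ifngr2* (0.980), *Runx1* (0.935), *Airn* (0.933), *Lrrc8c* (0.930) and *Fhl2* (0.930), and *Tubb3* like *Fbxo46* (0.985), *Hist1h2bh* (0.971), *Lsmd1* (0.969), *Ndufs7* (0.966) and *Tmem160* (0.966). The highest values were lower for *Map2* (*Ablim1*, 0.907), *Pax6* (*3200001D21Rik*, 0.895) and *Sox1* (*Atf5*, 0.828). No other member appeared among the 5 genes nearest to any member.

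The wider neural programme was read from 8 lists with 114 genes in all, of which 92 passed the filter for XX against XY. Here 1 gene rose and 6 fell in XX lines by limma at an FDR of 0.05, 7 of 92 beside 5.21% of all genes tested, and the median log2 difference was -0.15, beside -0.03 over all genes tested. Among 19 neuronal differentiation genes 0 rose and 4 fell, with a median of -0.41. These were *Crmp1* (-1.38, adjusted p = 0.0378), a growth cone protein, *Gad1* (-1.29, adjusted p = 0.0191), which makes the transmitter GABA, the neuronal filament gene *Ina* (-1.04, adjusted p = 0.0378) and the synaptic vesicle gene *Syp* (-0.83, adjusted p = 0.0377). *Tubb3* and *Map2*, themselves neuronal genes, also had negative values and did not pass.

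Of 25 neural progenitor factors 1 fell, *Sox11*, at -1.39 (SE 0.36, adjusted p = 0.0394), with a list median of -0.20. *Sox11* had signals of 702, 272 and 742 in CB XX lines against 3003, 2400 and 2447 in CB XY lines, and of 993, 1363 and 1955 in BC XX against 1575, 2427 and 1890 in BC XY lines. The groups were far apart in the CB cross and overlapped in the BC cross. *Sox2*, the most abundant of the progenitor factors and also a core factor of ES cells, was at -0.06 (SE 0.23, adjusted p = 0.907).

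Among 9 genes for MEIS partners and relatives, 0 rose and *Pbx2* fell, at -0.82 (SE 0.14, adjusted p = 0.00514). PBX proteins are the DNA-binding partners of Meis1 and Meis2. *Pbx2* had signals of 663, 704 and 614 in BC XX, 640, 425 and 752 in CB XX, 1108, 1195 and 1012 in BC XY, 1282, 1036 and 1027 in CB XY and 1148 and 1147 in XO lines. Every XX line was below every XY and XO line, a direction opposite to that of *Meis2* in the same lines. *Pbx2* passed the threshold in all 23 alternatives, with differences from -0.88 to -0.66.

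Of 12 tubulins and microtubule-associated proteins 1 rose, *Map6*, at 0.80 (SE 0.19, adjusted p = 0.0261), whose product stabilises microtubules. No call was made among 6 glial genes, 12 genes for neural adhesion and NCAM partners and 6 neural repressors such as *Rest*, where by limma 0 genes passed and 1, 4 and 0 had an unadjusted p under 0.05. The 9 intermediate filament genes had a median of -0.64, and *Ina*, counted above, was the one called. The number of calls over all lists depended on single lines. It was between 2 and 4 without BC XX 1, BC XY 2, BC XY 3, CB XX 2, CB XX 3, CB XY 1, CB XY 2 or CB XY 3, and 13 without CB XX 1. Without both CB XY 2 and CB XY 3, 2 of the 7 genes passed, *Map6* and *Pbx2*. The log2 differences of the genes that did not pass were then -1.34 for *Sox11*, -1.13 for *Gad1*, -1.10 for *Crmp1*, -0.86 for *Ina* and -0.82 for *Syp*. With the fibroblast covariate 2 of the 7 passed, *Pbx2* and *Sox11*. The values of the others were then -1.32 for *Gad1*, -1.29 for *Crmp1*, -0.71 for *Ina*, -0.65 for *Syp* and 0.50 for *Map6*. These are only the 7 genes called without the covariate, and genes called only with it are not listed here. The number of list genes called with it stayed within 1.5 times that without it.

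**Figure D4:**
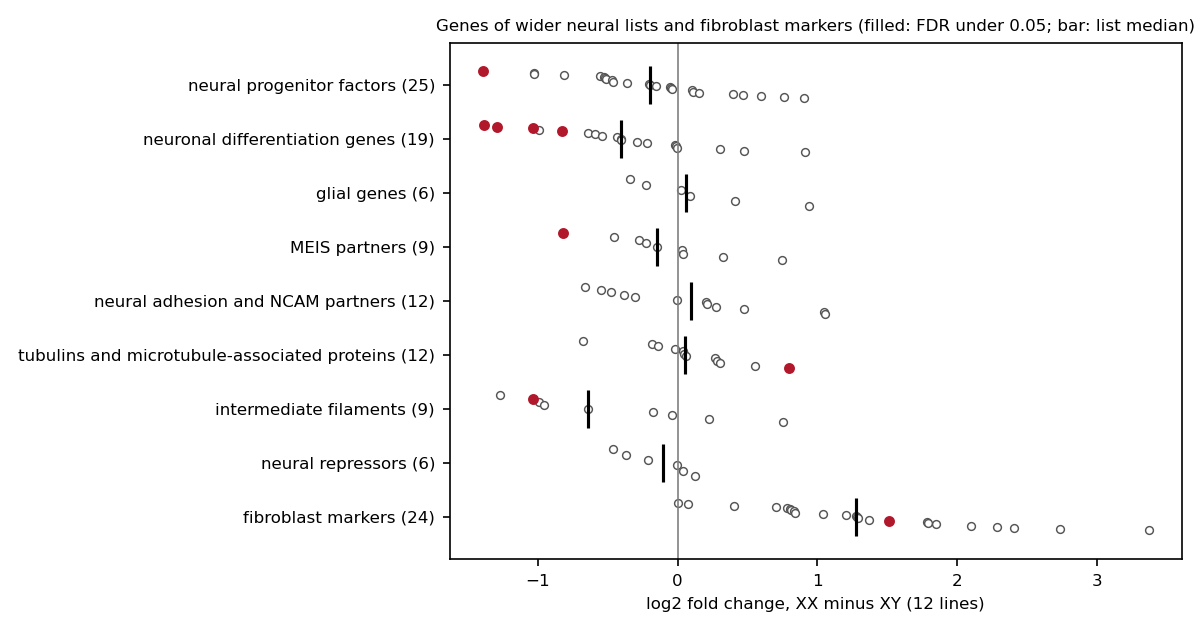
Log2 fold change of XX against XY lines for the genes of 8 neural lists and for fibroblast markers (number tested in brackets); points are genes, filled where they passed an FDR of 0.05, and bars are list medians. The neuronal list has its median at -0.41 with 4 genes called lower, and the fibroblast markers have theirs at 1.28.

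The lists were also read within each cross, where *Pbx2* was called in both. In BC lines 6 of 100 genes tested passed by limma at an FDR of 0.05, beside 5.7% of all genes, among them *Dpysl3* (1.27), *Map6* (1.21), *Prnp* (1.57) and *Vim* (1.39), higher in XX cells, and *Pbx2* (-0.74), lower. *Vim* encodes vimentin, the filament of mesenchymal cells as well as of neural progenitors. With the fibroblast covariate 0 of these 6 passed, and *Vim* and *Prnp* changed sign, to -0.44 and -0.50. In CB lines 8 of 100 passed, beside 3.57% of all genes, among them *Tubb2b* (0.62), higher in XX cells. *Sox11* (-2.31, adjusted p = 0.00351), *Crmp1* (-1.90), *Gad1* (-1.57), *Nkx6-1* (-1.49), *Prom1* (-1.32) and *Pbx2* (-0.91) were lower. With the fibroblast covariate all 8 passed, and without CB XY 2 and CB XY 3, which leaves CB XY 1 as the only XY line, *Sox11* and *Nkx6-1* passed. Of the 6 members tested, 0 passed by limma in either cross, and 1 gene in each, *Nes* in BC and *Map2* in CB lines, had an unadjusted p under 0.05.

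Against BC XO lines, BC XX lines were higher in *Dpysl3* (0.94) and *Map6* (0.90) and lower in *Ina* (-1.49) and *Rest* (-0.52), 4 of 100 genes by limma beside 4.66% of all genes. Without CB XY 2 and CB XY 3, which are in neither of these groups but share the estimate of the spread, the differences were the same and 0 of the 4 passed. Between BC XX and CB XX lines 8 of 100 were called, beside 7.15% of all genes, all higher in BC XX, among them the progenitor factors *Emx2* (1.61) and *Sox11* (1.40), the neuronal gene *Dcx* (1.09), the adhesion gene *Cdh2* (1.96) and the epithelial keratins *Krt8* (2.37) and *Krt18* (2.28). Between BC XO and BC XY, between the XY groups and in the interaction, 0 of 100 passed by limma, and 0, 18 and 11 genes had an unadjusted p under 0.05. Of the 8 genes called between the XX groups, 4 passed without CB XY 2 and CB XY 3, *Cdh2*, *Dpysl3*, *Krt8* and *Sox11*. With the fibroblast covariate 0 of the 4 genes against BC XO and 0 of the 8 between the XX groups passed. Among the 8, the log2 differences were then 1.48 for *Sox11*, 1.99 for *Krt18* and 0.98 for *Prom1*, near those without it. They were 0.34 for *Cdh2*, 0.66 for *Dpysl3*, 0.80 for *Emx2*, 0.66 for *Dcx* and 1.80 for *Krt8*. Without the covariate these 5 were at 1.96, 1.26, 1.61, 1.09 and 2.37. Among the 4, *Dpysl3* was at 0.30, *Map6* at 0.52, *Ina* at -0.88 and *Rest* at -0.37.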

How the data were processed

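The members and gene lists were chosen with earlier results of these data known. Per the labels and the methods, stranded total RNA libraries gave single-end reads, which TopHat2 placed on mm9 and Cuffdiff summarised per gene. The authors deposited 1 signal value per gene and line, scaled to a common depth. Between 96.23% and 98.28% of a line's values are whole multiples of its step (tolerance 0.05), so depth was estimated, and fractional values kept the tests for read counts from being used as planned. Values were taken as log2(signal + 5). Genes with a signal of 10 or more in 6 lines (XX against XY, 12 lines) or 2 lines (model of 5 groups, 14 lines) were tested with limma 3.58.1 (trended variance, Benjamini-Hochberg over all genes tested) in R 4.3.3, checked on simulated data. The XX against XY model held no term for the cross, so differences between crosses add to its standard errors. With the cross as a covariate 0 of the 6 members tested passed by limma. Left out were 15 genes listed at 0 in a whole group and at 100 or more elsewhere, none of them in the lists. Intervals cover 95%. P-values measure the spread between lines. Names were matched to GENCODE M1, with *Map2* through a RefSeq synonym. The genes named are all 8 members, list genes past an FDR of 0.05 or among the highest of a list, the 5 genes most like each member, and markers that a result turns on. *Elp4* and *Gm11149* were named as overlapping genes. The methods describe library batches of 6 without assigning lines, so a batch could not be modelled. Some genes of the lists are not reported here.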

Additional observations from a re-analysis of the deposited data

Results flagged for a closer look

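Among the 6 XY lines, the line labelled CB XY 2 was far below the others for a pair of genes. Its *Meis2* signal was 51.6, where the other XY lines had 121 to 151, and its *Nes* signal was 1309, where the others had 2073 to 2476. On the log2(signal + 5) scale, the gap to the nearest XY line was 0.792 of the whole range of the XY lines for *Meis2* and 0.721 for *Nes*. In all, 16 groups of 6 lines were examined, and about 1 in 20 would be singled out by chance. The same line has the fewest reads (11904424), the lowest fibroblast marker sum (11539) and a *Uty* signal (19.6) as low as that of lines without a Y chromosome. The part of these in the low values was not tested.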

How the results depend on the processing

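Counts of called members kept within 1.5 times their value under every alternative run, except for BC XX against CB XX (3 genes), where no filter on low values and the fibroblast covariate each left 0 and the fit without CB XY 2 and CB XY 3 left 1. For the wider lists in XX against XY (7 genes), no filter left 4 and the fit without those 2 lines left 2. With 1 line left out in turn, calls ranged from 0 to 3 for BC XX against CB XX, from 0 to 1 for BC XX against BC XO (*Tubb3*, adjusted p = 0.0494 by limma without CB XX 3) and from 2 to 13 for the wider lists, and the genes with a fibroblast correlation of at least 0.5 in size from 4 to 6. The cause was not tested.

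With the fibroblast covariate the log2 difference changed sign for *Meis1* (-0.24), *Nes* (-0.42, or -0.27 with the cross as well) and *Tubb3* (0.22) in XX against XY, for *Meis1* (-0.062) and *Nes* (-0.39) in the BC cross, for *Sox1* (0.0068) in the CB cross and for the *Nes* interaction (-0.15). *Sox1* in the CB cross also turned to 0.0060 with median-of-ratios factors and 0.033 with quantile normalization. Without CB XY 2 and CB XY 3, *Meis1* in the CB cross was -0.093, and *Ncam1* and *Meis2* between XY groups were 0.16 and -0.13.

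Values that changed sign without 1 line ranged, in XX against XY, from -0.39 to 0.053 (*Tubb3*). In the BC cross they ranged from -0.62 to 0.034 (*Pax6*) and -0.56 to 0.016 (*Tubb3*). In the CB cross they ranged from -0.060 to 0.28 (*Meis1*), -0.17 to 0.27 (*Sox1*), -0.39 to 0.32 (*Nes*) and -0.29 to 0.29 (*Tubb3*). In BC XO against BC XY the range was -0.055 to 0.41 (*Ncam1*), between XX groups -0.38 to 0.015 (*Sox1*) and -0.20 to 0.34 (*Map2*), and between XY groups -0.45 to 0.017 (*Ncam1*) and -0.016 to 0.68 (*Meis2*). None of these was called in any of the fits, and the values of *Ncam1* and *Meis2* are a description. Sign changes, here and in the paragraph above, were looked for in all 8 members for XX against XY, within each cross and between the XX groups. In BC XO against BC XY, in BC XX against BC XO, between the XY groups and in the interaction, only members whose value is given above were examined.

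Lines with the same number deviated together with correlations from -0.22 to 0.27, and lines with different numbers from -0.43 to 0.40. No pairing by number was seen in these correlations. With the replicate number as a block, possible where CB XX lines are not involved, 0 members were called in each of 4 comparisons, as without it (*Nes* in the BC cross, 0.77, adjusted p = 0.0594 by limma). Over all genes the block moved calls from 927 to 1129 in the BC cross, from 758 to 332 against XO and from 104 to 368 between XY groups. The planned edgeR and DESeq2 fits were not run, because the values are not counts.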
